A study of Mus musculus with 30 samples.

Results

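The 5 genes described here, *Dnmt1*, *Dnmt3a*, *Dnmt3b*, *Dnmt3l* and *Uhrf1*, write and maintain CG methylation. They were taken from 18194 genes measured by array in 30 single mouse cells, kept as primordial germ cells (PGCs), at E7.25-E7.5. All 13 probe sets that the platform annotation pairs with one of these 5 symbols were taken, and none of them carried a second symbol. DNMT3A and DNMT3B are the de novo methyltransferases, and DNMT3L is their cofactor without catalytic activity. DNMT1 copies methylation onto the new strand at replication, and UHRF1 recognises hemimethylated CG sites and brings DNMT1 to them. Early mouse PGCs are known to lower *Dnmt3b* and *Uhrf1* while *Dnmt1* continues to be transcribed, and lose most of their CG methylation during the following days.

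The cells came from C57BL/6 embryos of crosses between *Prdm14* heterozygotes and carried the genotype labels *Prdm14* KO (homozygous mutant, 4 cells), *Prdm14*+/- (13 cells) and WT (13 cells). *Prdm14* codes for a transcription factor that PGCs need for epigenetic reprogramming. Cells were dissociated from the base of the allantois, picked one by one, amplified and kept as PGCs when *Prdm1* was found by PCR, and each was hybridised to 1 array. The array codes show 3 runs, with the 4 cells labelled *Prdm14* KO and 6 labelled *Prdm14*+/- in run 3, 7 labelled *Prdm14*+/- and 3 labelled WT in run 2, and 10 labelled WT in run 1. The cells labelled *Prdm14* KO and WT therefore shared no run, and genotype and run cannot be told apart between them. As no label ties a cell to an embryo, each genotype counted as 1 sample. No test was run, and each SD is the spread between cells.

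The labels were checked on *Prdm14* itself, and its transcript ran against them. It had 11.40 ± 0.98 in cells labelled *Prdm14* KO (SD, n = 4), 9.70 ± 1.93 in cells labelled *Prdm14*+/- (SD, n = 13) and 7.40 ± 1.85 in cells labelled WT (SD, n = 13), on the log2 scale of the model-based expression index (MBEI). The sources used here do not say whether this probe set lies in the removed part of the gene. Every direction below is therefore one between cells so labelled. The means of *Dppa3* had the same order. This gene, a PGC marker whose product keeps UHRF1 off chromatin, had 12.55 ± 0.38 in cells labelled *Prdm14* KO, 10.23 ± 2.87 in those labelled *Prdm14*+/- and 9.05 ± 2.01 in those labelled WT. This is opposite to the direction the study gives for *Dppa3* in mutant PGCs from its single-cell microarrays. The study also reports lower *Dppa3* by quantitative PCR and failed *Dppa3* activation in PGC-like cells lacking *Prdm14*. It cites earlier work with weaker DPPA3 staining in mutant PGCs. Whether the deposited labels were exchanged cannot be settled from the files. All 30 cells had *Prdm1* above the floor, the gene by which they were kept.

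Levels are log2 MBEI as deposited. On average 63.7% of the values of an array were listed at 0, and levels below 6 (64 MBEI) were set to that floor, so that a gene at the floor had no usable level, and a failed estimate cannot be told from absence. A gene is called on in a cell when its main probe set, the one with the highest mean over all cells, lay above the floor. The number of probe sets above 0 ranged from 16407 to 17899 in cells labelled *Prdm14* KO, from 13695 to 17705 in cells labelled *Prdm14*+/- and from 13853 to 18535 in cells labelled WT. The number of arrays limits the precision of every mean.

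On the GRCm38.p6 assembly, *Dnmt3b* lies at chr2:153649411-153687730, *Uhrf1* at chr17:56303337-56323486, *Dnmt1* at chr9:20907206-20959888, *Dnmt3a* at chr12:3801559-3914443 and *Dnmt3l* at chr10:78042287-78063622. The upstream 250 bases of 1 RefSeq start each of *Dnmt3b*, *Uhrf1* and *Dnmt1* are shown, because the first pair was on in some cells only and *Dnmt1* in all. Of the 3 starts listed for *Dnmt1* and the 2 for *Uhrf1*, the one whose window held E2F-type letters was chosen for printing. The chosen windows of *Dnmt1* and *Uhrf1* lie inside the gene intervals given above, past the outermost listed start. They thus hold bases of the gene itself. The *Dnmt3b* window reaches past the start of its interval. Sequences are from RefSeq on that build, read 5′ to 3′ on the strand of the gene. Capitals mark the letters TTTCGCGC, one of the E2F-type sequences searched on both strands (also TTTCCCGC, TTTGGCGC and TTTGCCGC), or GGGGCGGGG, the Sp1-type letters.
*Dnmt3b* (chr2:153649199-153649448, plus strand): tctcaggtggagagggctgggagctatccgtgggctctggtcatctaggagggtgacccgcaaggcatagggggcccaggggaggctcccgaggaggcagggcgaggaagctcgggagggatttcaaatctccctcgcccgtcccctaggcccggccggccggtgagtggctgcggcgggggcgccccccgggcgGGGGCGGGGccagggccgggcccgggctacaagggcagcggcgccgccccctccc
*Uhrf1* (chr17:56304063-56304312, plus strand): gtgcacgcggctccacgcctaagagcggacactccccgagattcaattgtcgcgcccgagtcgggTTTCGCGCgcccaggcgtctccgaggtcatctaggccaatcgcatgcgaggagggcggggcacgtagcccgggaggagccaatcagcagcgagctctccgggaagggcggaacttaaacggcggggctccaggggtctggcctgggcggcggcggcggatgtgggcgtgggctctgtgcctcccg
*Dnmt1* (chr9:20952624-20952873, minus strand): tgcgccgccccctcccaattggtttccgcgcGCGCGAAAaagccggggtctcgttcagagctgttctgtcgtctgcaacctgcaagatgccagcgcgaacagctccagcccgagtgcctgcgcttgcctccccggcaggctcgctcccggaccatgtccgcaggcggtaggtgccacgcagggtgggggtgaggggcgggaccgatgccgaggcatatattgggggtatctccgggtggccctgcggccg

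The same E2F-type letters stood 185 to 178 bases before this start of *Uhrf1* and, on the other strand (printed as GCGCGAAA), 219 to 212 bases before this start of *Dnmt1*. Of 32851 mouse promoter windows of this length, 1.86% held at least 1 of the 4 E2F-type sequences. As the printed windows of *Uhrf1* and *Dnmt1* were chosen for holding them, this share does not say how unusual the matches are. The window of *Dnmt3b* held none of them and had the Sp1-type letters 55 to 47 bases before the start, which 10.4% of windows hold. The letters GGTCTCTAA, taken for PRDM14, were in 0.240% of windows and in none of the 12 windows listed for the 5 genes. CG dinucleotides numbered 21 in the *Dnmt3b* window, 30 in that of *Uhrf1* and 26 in that of *Dnmt1*, against a median of 6 over all windows (quartiles 2 and 16). The other windows of these genes held fewer, 2 and 7 for *Dnmt1* and 10 for *Uhrf1*, and no E2F-type letters. A match of letters is a description of the window and not a binding site.

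*Dnmt1*, the maintenance methyltransferase, was on in all 30 cells, as were 9.32% of the 18194 genes. Its main probe set (1422946_a_at) had 11.09, 12.07, 11.43 and 12.40 in cells 8, 18, 21 and 81, which are labelled *Prdm14* KO. In cells labelled *Prdm14*+/- the lowest level was 9.91, the median 11.65 and the highest 12.35, and in cells labelled WT the lowest was 8.25, the median 11.70 and the highest 12.16. The groups overlapped, with 2 of the 4 cells labelled *Prdm14* KO above and 2 below the median of each other group. The difference between labels was 0.40 for *Prdm14* KO minus WT (pooled SD 0.95) and 0.08 for *Prdm14* KO minus *Prdm14*+/- within run 3 (pooled SD 0.53), both smaller than the spread. In run 2 the cells labelled *Prdm14*+/- lay 1.08 above those labelled WT (pooled SD 1.12). That value rested on WT cell 65, whose 8.25 was the lowest *Dnmt1* level of all cells, and the difference was 0.08 without it.

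The 3 probe sets of *Dnmt1* ordered the cells almost alike, with Spearman's rho of 0.98 to 0.99 between pairs over the 30 cells. The second was above the floor in all 30 cells and the third in 29. Both carry the suffix that the array maker gives to sets whose probes can match other sequences. In cell 65 the low level of *Dnmt1* was shared by the other sets, with 6.53 in the second and 5.51, below the floor, in the third.

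*Dnmt3b*, a de novo methyltransferase highly transcribed in the epiblast from which PGCs arise, was on in 24 of 30 cells. Its main probe set (1449052_a_at) was at the floor in cells 8 and 21 and had 9.12 and 9.53 in cells 18 and 81 among those labelled *Prdm14* KO. In cells labelled *Prdm14*+/- it ranged from the floor of 6 (3 of 13 cells) over a median of 10.34 to 12.07. In cells labelled WT it ranged from the floor (1 of 13 cells, cell 49) over a median of 11.87 to 12.65. All 4 cells labelled *Prdm14* KO lay below the median of both other groups, and 12 of the 13 cells labelled WT lay above the highest of them. Cell 49 was the exception, so the groups overlapped.

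The mean of *Dnmt3b* was 7.66 ± 1.93 in cells labelled *Prdm14* KO (SD, n = 4), against 11.18 ± 1.69 in cells labelled WT (SD, n = 13). The difference was -3.52, larger than the pooled SD of 1.74 between cells. Over all genes, 4.41% were lower by at least 1 in this comparison and 8.14% were higher by at least 1. Because cells at the floor enter at 6, the size of the difference depends on the floor. Among cells that were on, the mean was 9.33 for *Prdm14* KO (2 cells) and 11.61 for WT (12 cells), a difference of -2.28. *Dnmt3b* was thus lower in the 2 cells labelled *Prdm14* KO that had a level as well.

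Within run 3, where both labels were hybridised, *Dnmt3b* had a lowest level of 6, a median of 11.40 and a highest level of 12.07 in the 6 cells labelled *Prdm14*+/-. The difference of *Prdm14* KO minus *Prdm14*+/- was -2.82 with a pooled SD of 2.16, and -2.21 over all 13 cells labelled *Prdm14*+/- with a pooled SD of 2.31. Of the 6 cells, 5 lay above all 4 labelled *Prdm14* KO and cell 98 was at the floor. In this comparison 5.88% of genes were lower and 8.76% were higher by at least 1.

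In run 2, *Dnmt3b* had a lowest level of 6, a median of 10.18 and a highest of 12.07 in 7 cells labelled *Prdm14*+/-, against 12.65, 11.92 and 10.71 in cells 61, 64 and 65 labelled WT. The difference was -2.40 (pooled SD 2.25), and 5 of the 7 cells lay below all 3 cells labelled WT. Of all genes, 8.51% were lower and 6.17% higher by at least 1 in this comparison of few cells. Over all runs the difference of *Prdm14*+/- minus WT was -1.30, smaller than the pooled SD of 2.07, and -0.98 without cell 66, the array with the fewest probe sets above 0.

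*Uhrf1*, which guides DNMT1 to hemimethylated sites, was on in 23 of 30 cells. Its main probe set (1415810_at) was at the floor in cell 8 and had 8.56, 8.17 and 8.31 in cells 18, 21 and 81 among those labelled *Prdm14* KO. In cells labelled *Prdm14*+/- it ranged from the floor (4 of 13 cells) over a median of 10.09 to 11.80, and in cells labelled WT from the floor (2 of 13 cells) over a median of 10.54 to 11.27. All 4 cells labelled *Prdm14* KO lay below the medians of both other groups, and 10 of the 13 cells labelled WT lay above the highest of them.

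The mean of *Uhrf1* was 7.76 ± 1.18 in cells labelled *Prdm14* KO (SD, n = 4), against 9.78 ± 1.89 in cells labelled WT (SD, n = 13). The difference was -2.02 with a pooled SD of 1.77. The cells that were on averaged 8.34 for *Prdm14* KO (3 cells) and 10.46 for WT (11 cells). Within run 3 *Uhrf1* had a lowest level of 6, a median of 10.35 and a highest of 11.80 in cells labelled *Prdm14*+/-, and *Prdm14* KO minus *Prdm14*+/- was -1.45, less than the pooled SD of 2.14. Without cell 8, the only cell labelled *Prdm14* KO at the floor, the differences were -1.43 from WT and -0.86 from *Prdm14*+/- within run 3.

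In run 2 *Uhrf1* had a lowest level of 6, a median of 9.98 and a highest of 10.74 in the 7 cells labelled *Prdm14*+/-, against 11.27, 10.88 and 10.76 in the 3 labelled WT. Every cell labelled *Prdm14*+/- therefore lay below every cell labelled WT, which held for 0.621% of all genes, although the highest and lowest of these cells were only 10.74 and 10.76. The difference was -2.07 with a pooled SD of 1.81. Over all runs it was -0.73 with a pooled SD of 2.06, and both cells labelled WT at the floor belong to run 1.

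**Figure D1:**
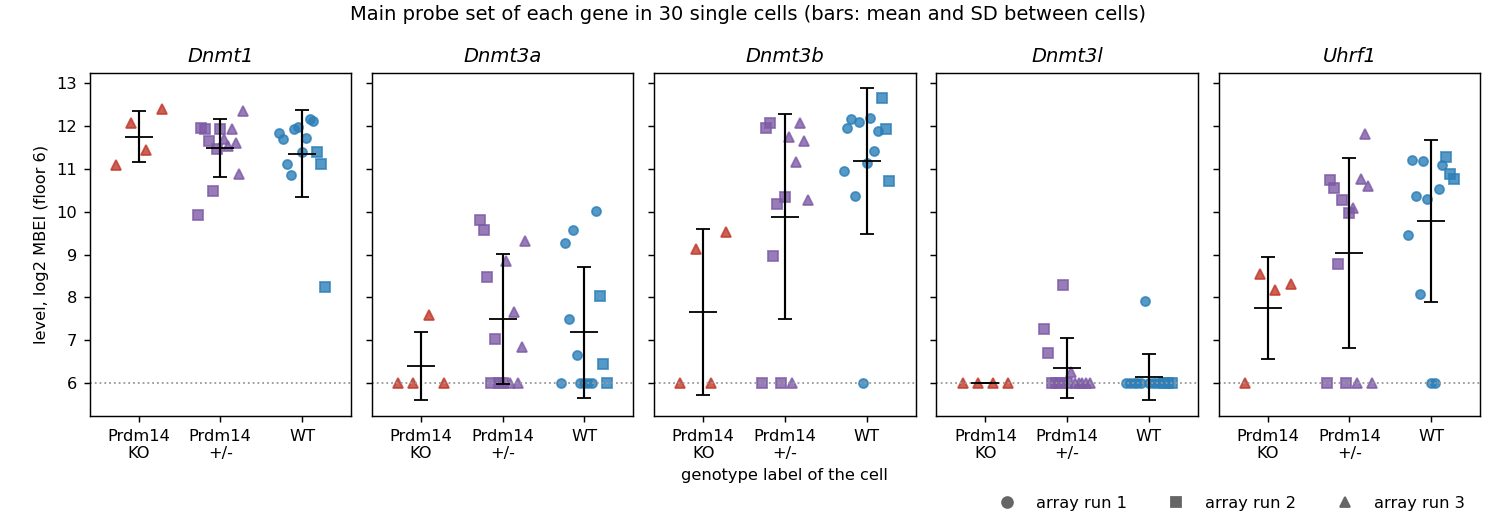
Level of the main probe set of each gene (log2 MBEI, floor 6, dotted line) in 30 single cells by genotype label, 1 point per cell, with the shape giving the array run and bars the mean and SD between cells. All 4 cells labelled *Prdm14* KO lie at or below 9.53 for *Dnmt3b* and 8.56 for *Uhrf1*, while *Dnmt1* is on in all 30 cells.

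**Figure D2:**
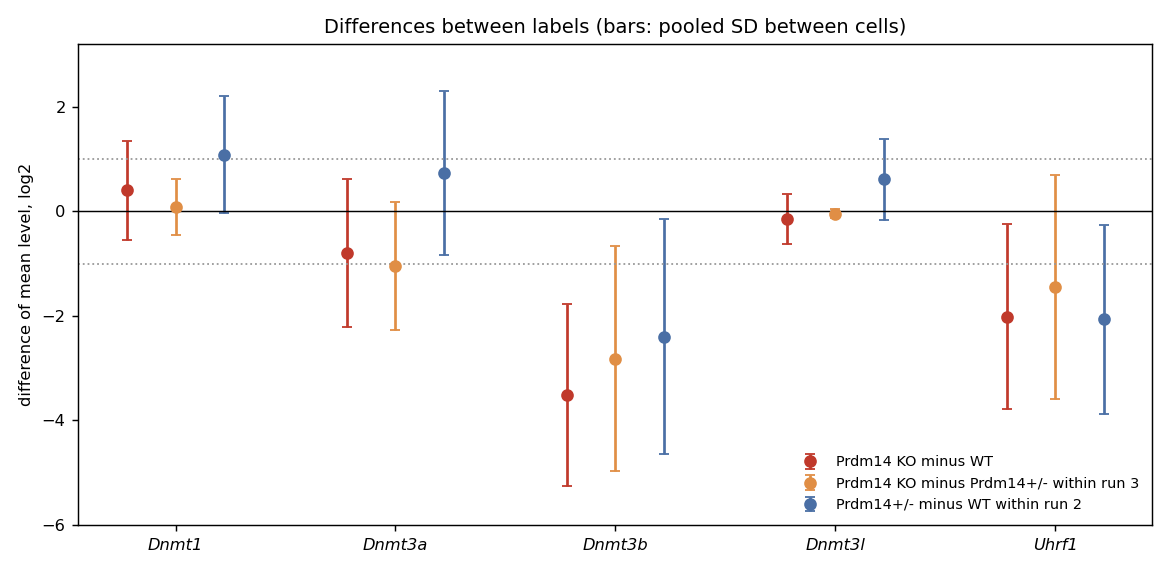
Difference of mean level (log2) between labels for the main probe set of each gene, with the pooled SD between cells as bars and dotted lines at 1 and -1. *Dnmt3b* lies at -3.52, -2.82 and -2.40 and *Uhrf1* at -2.02, -1.45 and -2.07 in *Prdm14* KO minus WT, *Prdm14* KO minus *Prdm14*+/- within run 3 and *Prdm14*+/- minus WT within run 2, which share cells.

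*Dnmt3b* and *Uhrf1* were each on in most cells, in 24 and 23 of 30. Both were on in 21 of 30 cells and both at the floor in 4, so that 25 cells had the same state for both. Many shared states follow from the separate rates alone, and the number to be so expected was not worked out. The 4 cells with both at the floor were cell 8 among the 4 labelled *Prdm14* KO and cells 66, 89 and 98 among the 13 labelled *Prdm14*+/-, while 0 of the 13 cells labelled WT were in this state. Cells 66 and 89 belong to run 2 and cells 8 and 98 to run 3. Run 1 held cells labelled WT alone, so label and run cannot be told apart in this count, and in run 2 the state was seen in 2 of 7 cells labelled *Prdm14*+/- and 0 of 3 labelled WT. Without cell 66, the count was 3.

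In 5 cells only one of the genes was at the floor. *Dnmt3b* alone was at the floor in cell 21 (labelled *Prdm14* KO) and cell 49 (labelled WT). *Uhrf1* alone was at the floor in cell 119 (labelled *Prdm14*+/-) and cells 50 and 51 (labelled WT). *Dnmt3b* had 10.28, 11.13 and 12.17 in these 3 cells. A level at the floor in one gene was thus not always accompanied by one in the other. The main set of *Dnmt3a* had the same state as *Dnmt3b* in 18 cells and as *Uhrf1* in 19 cells.

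**Figure D3:**
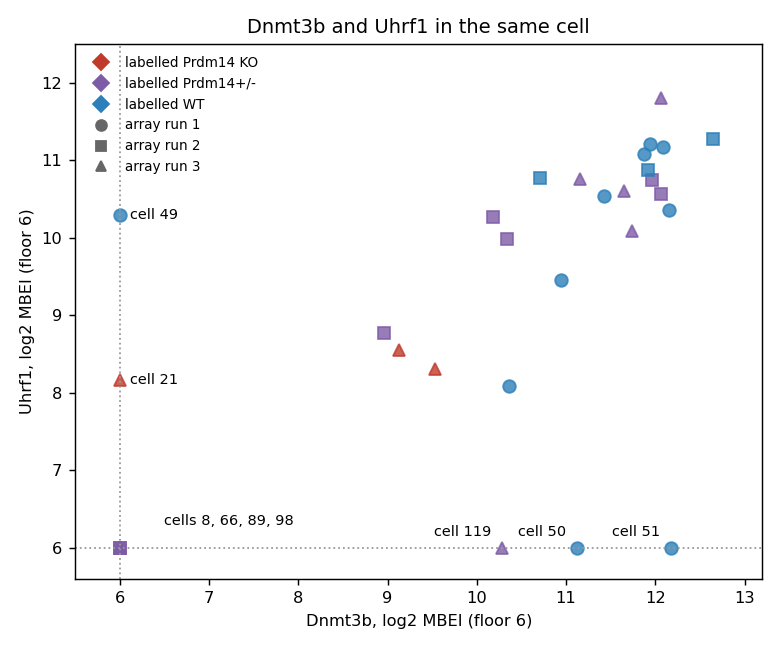
*Uhrf1* against *Dnmt3b* (log2 MBEI, floor 6 on both axes) in each of 30 cells, coloured by genotype label and shaped by array run. Cells 8, 66, 89 and 98 overlie each other at the floor of both genes, and 5 cells are at the floor of one gene alone.

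The 4 cells with both genes at the floor differed in their other values. Cell 8 had 16407 probe sets above 0 (place 18 of 30), cell 66 had 13695 (place 30), cell 89 had 16063 (place 21) and cell 98 had 16904 (place 13). *Dnmt1* was on in all of them, with 11.09, 9.91, 11.47 and 11.52. Their *Dppa3* levels were 11.98, 12.61, 12.70 and 12.92, against a range of 6 to 13.06 over the 30 cells. The part of array detection in these joint losses was not tested. Cell 66 had the lowest number of detected probe sets and the lowest *Dnmt1* level among cells labelled *Prdm14*+/-. Cell 8 was likewise the lowest in both among the 4 cells labelled *Prdm14* KO. Cells 89 and 98 were the lowest of their label in neither.

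Across cells the levels of *Dnmt3b* and *Uhrf1* had a Spearman's rho of 0.66 (n = 30, Pearson's r = 0.62). It was 0.83 over the 13 cells labelled *Prdm14*+/- (r = 0.87) and 0.42 over the 13 labelled WT (r = 0.05). Within array runs it was 0.25 in run 1, 0.88 in run 2 and 0.80 in run 3 (n = 10 each). The relation was thus weak among the cells labelled WT of run 1, of which 2 were at the floor for *Uhrf1* alone and 1 for *Dnmt3b* alone. These values are descriptions, since cells at the floor are tied and cells of a run share their hybridisation. Among 5289 other genes with a mean of at least 8, *Uhrf1* stood at place 58 in likeness to *Dnmt3b*, and *Dnmt3b* at place 30 in likeness to *Uhrf1*. *Dnmt1* had a rho of 0.11 with *Dnmt3b* and 0.10 with *Uhrf1*.

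The second probe sets of these genes were on in fewer cells. That of *Dnmt3b* (1418351_a_at) was above the floor in 13 cells, in each of which the main set was on too, with main levels of 10.34 to 12.65. In the 11 cells where only the main set was on, its levels were 8.96 to 12.08, so the ranges overlapped. The second set was at the floor in all 4 cells labelled *Prdm14* KO, on in 5 of 13 labelled *Prdm14*+/- and on in 8 of 13 labelled WT. Its *Prdm14* KO minus WT difference was -1.44 (pooled SD 1.33), of the same sign as in the main set. Spearman's rho between the sets was 0.65.

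The second set of *Uhrf1* (1415811_at) was on in only 4 cells, of which 0 were labelled *Prdm14* KO, 1 was labelled *Prdm14*+/- (cell 78) and 3 were labelled WT (cells 48, 64 and 65), and never without the main set. Spearman's rho between the sets was 0.39. No cell counted as having both genes at the floor had either gene on in its second set, so the count stayed at 4 when any probe set was allowed.

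*Dnmt3a*, the other de novo methyltransferase, was on in 16 of 30 cells by its main probe set (1423064_at). Among cells labelled *Prdm14* KO it was on in cell 21 alone, with 7.60. In cells labelled *Prdm14*+/- it was on in 8 of 13 (median 7.03, highest 9.80) and in cells labelled WT in 7 of 13 (median 6.46, highest 10.01). *Prdm14* KO minus WT was -0.79 (pooled SD 1.41) and *Prdm14* KO minus *Prdm14*+/- within run 3 was -1.04 (pooled SD 1.22), both within the spread. *Prdm14*+/- minus WT was 0.31 (pooled SD 1.52).

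The 5 probe sets of *Dnmt3a* did not agree. Spearman's rho between pairs ranged from -0.10 to 0.49, and 9 cells had none, 4 had 1, 9 had 2, 6 had 3 and 2 had 4 of the sets above the floor. One set (1460324_at) differed between labels in the opposite direction to the main set. It was at the floor in cell 8 and had 8.51, 8.58 and 9.17 in cells 18, 21 and 81, whereas it was on in 2 of 13 cells labelled *Prdm14*+/- and 3 of 13 labelled WT. Its *Prdm14* KO minus WT difference was 1.48 (pooled SD 1.19). By any of the 5 sets, *Dnmt3a* was on in 3 of 4 cells labelled *Prdm14* KO, 9 of 13 labelled *Prdm14*+/- and 9 of 13 labelled WT. The data therefore give no single direction for *Dnmt3a*, and what the sets read was not tested.

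*Dnmt3l*, the cofactor needed for methylation in the later germ line, has 1 probe set (1425035_s_at), which was at the floor in 25 of 30 cells. It was on in 0 of 4 cells labelled *Prdm14* KO, in 4 of 13 labelled *Prdm14*+/- (7.27 in cell 66, 6.72 in cell 76, 8.29 in cell 89 and 6.26 in cell 97) and in 1 of 13 labelled WT (7.92 in cell 49). Its *Prdm14* KO minus WT difference was -0.15 (pooled SD 0.48). Of the 5 cells with *Dnmt3l* on, cells 49, 66 and 89 had *Dnmt3b* at the floor, and cells 76 and 97 had it on. These are low levels in few cells, and the 2 genes had a rho of -0.27 over the 30 cells.

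**Figure D4:**
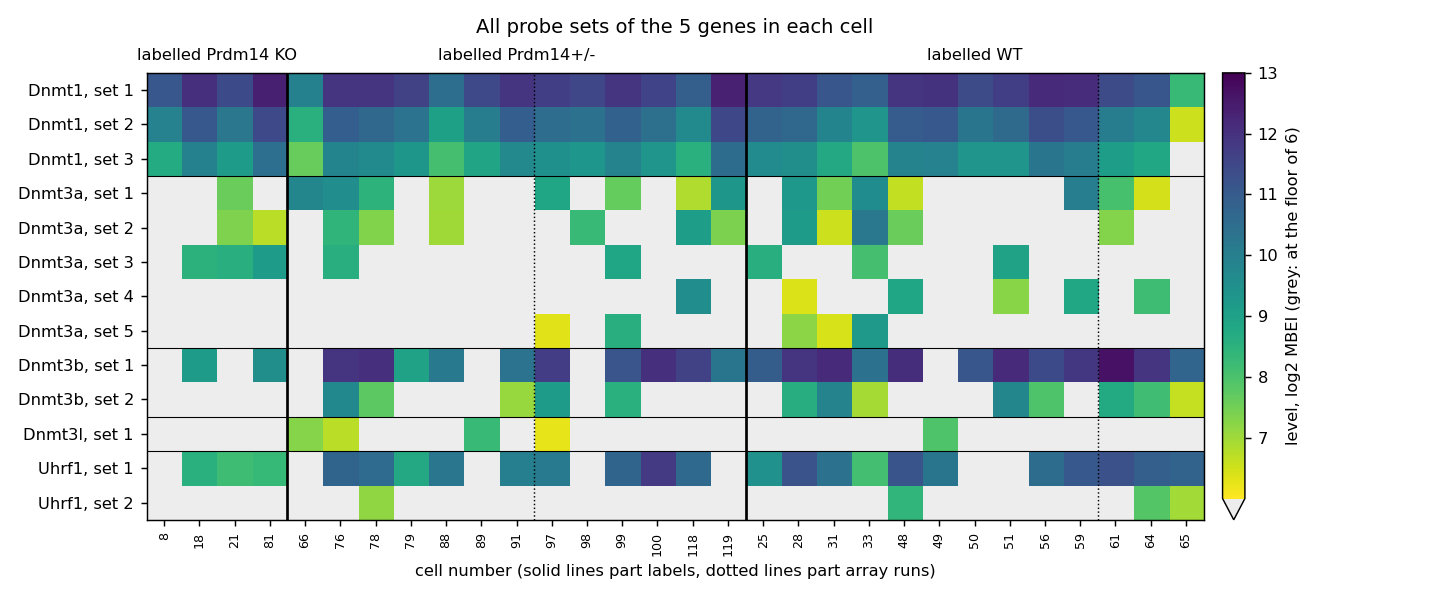
Level of all 13 probe sets (rows, numbered within each gene by falling mean) in the 30 cells (columns, by genotype label and array run), with colour giving log2 MBEI and grey the floor. The sets of *Dnmt1* move together, those of *Dnmt3a* do not, and the second sets of *Dnmt3b* and *Uhrf1* are on only where the first is.

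Counted over the 5 genes, 2 cells had 1 gene on, 3 had 2, 12 had 3, 11 had 4 and 2 had all 5. The cells with *Dnmt1* alone were cell 8 (labelled *Prdm14* KO) and cell 98 (labelled *Prdm14*+/-), both of run 3. The cells with all 5 were cells 76 and 97 (both labelled *Prdm14*+/-).

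The level of *Dnmt3b* in a cell went with its germ cell markers. A score was taken as the mean over 11 germ cell genes (*Prdm1*, *Prdm14*, *Tfap2c*, *Dppa3*, *Ifitm3*, *Ifitm1*, *Kit*, *Alpl*, *Dnd1*, *Itgb3* and *Cxcr4*). It ranged from 10.84 to 11.52 in cells labelled *Prdm14* KO, from 7.73 to 11.07 in cells labelled *Prdm14*+/- and from 7.90 to 10.80 in cells labelled WT. The 9 cells with the lowest *Dnmt3b* levels (8, 18, 21 and 81 labelled *Prdm14* KO, 66, 79, 89 and 98 labelled *Prdm14*+/-, and 49 labelled WT) were also the 9 cells with the highest germ cell score, 10.80 to 11.52. The other 21 cells had *Dnmt3b* levels of 10.18 to 12.65 and scores of 7.73 to 10.67. The lowest scores were 7.73, 7.90 and 8.00, in cells 100, 61 and 78. These cells had *Dppa3* at the floor and stood at places 1, 8 and 4 of 30 in the mean of the somatic mesoderm genes described below. Whether all 30 cells were PGCs was not tested. The cut at 9 cells was chosen after these values were seen.

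Spearman's rho between *Dnmt3b* and the score was -0.88 over 30 cells, -0.95 over the 13 labelled *Prdm14*+/- and -0.69 over the 13 labelled WT. For *Uhrf1* it was -0.63, -0.75 and -0.39 over the same cells. Of the 7 cells with *Uhrf1* at the floor, 3 were among the 7 cells with the highest score. With *Dppa3* alone, rho was -0.74 for *Dnmt3b* and -0.61 for *Uhrf1*. *Cxcr4* was at the floor in all 30 cells and *Itgb3* was on in 4, so that the other 9 genes carried the score in most cells. Within array runs of 10 cells each, rho between *Dnmt3b* and the score was -0.50 in run 1, -0.97 in run 2 and -0.84 in run 3, and for *Uhrf1* it was -0.40, -0.81 and -0.57. Both relations had the same sign in each run and, by rho, were weakest among the cells labelled WT of run 1. By Pearson's r this held for *Uhrf1* (-0.17, -0.59 and -0.67 in runs 1, 2 and 3). It did not hold for *Dnmt3b* (-0.79, -0.73 and -0.72).

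Of the 11 germ cell genes, 7 were higher and 0 lower by at least 1 in *Prdm14* KO minus WT, with a median difference of 1.23, and the counts were the same within run 3. Over all 18194 genes, many of them at the floor, 8.14% were higher and 4.41% lower by at least 1 in *Prdm14* KO minus WT. Within run 3 these shares were 8.76% and 5.88%. They are the background for the counts of the other lists below as well. Among the 11, the largest differences were those of *Prdm14*, *Dppa3* and *Itgb3* (2.49), an integrin gene that was on in 3 of the 4 cells labelled *Prdm14* KO. The part of this score in the difference between labels was not tested.

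**Figure D5:**
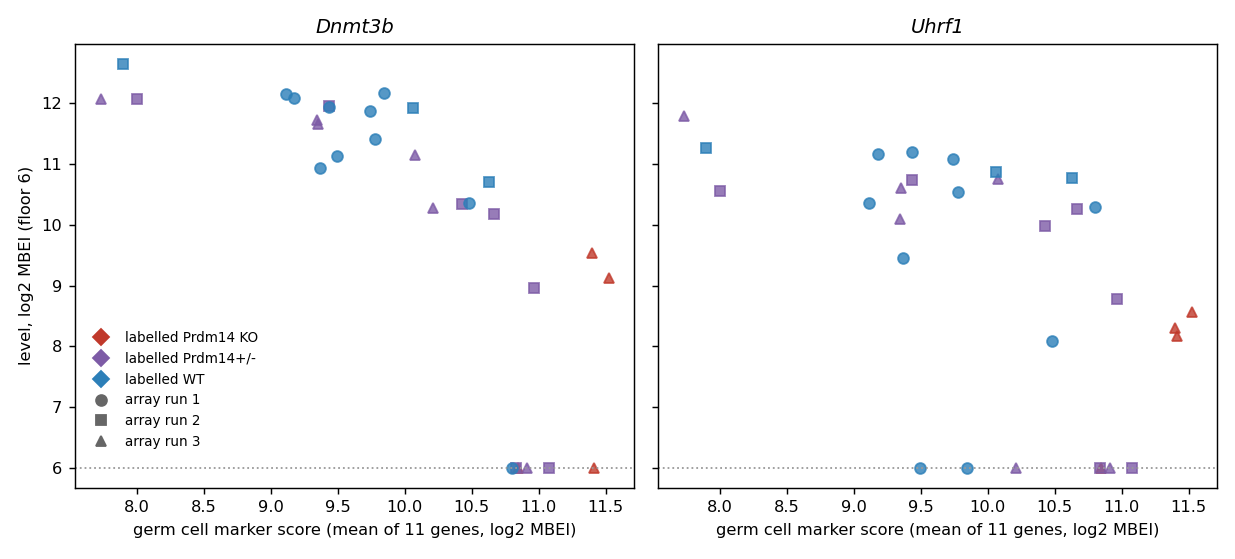
*Dnmt3b* (left) and *Uhrf1* (right), in log2 MBEI with the floor of 6 dotted, against the mean log2 MBEI of 11 germ cell genes in each of 30 cells, coloured by genotype label and shaped by array run. The 9 lowest *Dnmt3b* levels are in the 9 cells with a score of at least 10.80, a cut chosen after the values were seen.

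Somatic mesoderm markers moved with both genes in the other direction. The mean over 15 mesoderm genes had a rho of 0.65 with *Dnmt3b* and 0.64 with *Uhrf1* over 30 cells. Within runs 1, 2 and 3 it was 0.43, 0.81 and 0.84 with *Dnmt3b* and 0.37, 0.63 and 0.87 with *Uhrf1*. The mean ranged from 7.57 to 8.73 in cells labelled *Prdm14* KO, from 7.37 to 9.58 in cells labelled *Prdm14*+/- and from 7.70 to 9.01 in cells labelled WT. *Msx1*, *Msx2* and *Cdx2* were on in all 30 cells, and *Tbx4* in none. In *Prdm14* KO minus WT, 1 of the 15 genes was higher and 4 were lower by at least 1, among them *Mesp1* (-1.19), *Msx2* (-1.07) and *Hand1* (-1.04). The higher one was *Tbx6* (1.44). Within run 3, 1 was higher and 6 were lower. Their part in the levels of *Dnmt3b* and *Uhrf1* was not tested.

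Blood and endothelial markers ran against *Dnmt3b*, though only 2 of the 10 genes had a mean over 6.5, so their score lay close to the floor. The mean over 10 such genes was 6.62 in cells labelled *Prdm14* KO (range 6.36 to 6.86) and 6.19 in cells labelled WT (range 6 to 6.51), a difference of 0.43 with a pooled SD of 0.20. Within run 3 the difference of *Prdm14* KO minus *Prdm14*+/- was 0.23 (pooled SD 0.32), and within run 2 that of *Prdm14*+/- minus WT was 0.47 (pooled SD 0.27). The rho of this mean over 30 cells was -0.56 with *Dnmt3b* and -0.32 with *Uhrf1*. *Lmo2*, a regulator of blood formation, was on in 18 cells with a *Prdm14* KO minus WT difference of 2.65, and was the only one of the 10 to differ by at least 1 in that comparison. *Kdr* was on in 10 cells and *Etv2* in 6, while the defining blood genes *Gata1*, *Hbb-bh1* and *Hba-x* were on in 0. The part of these markers in the level of *Dnmt3b* was not tested.

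By rank correlation over 30 cells, the 3 genes most like *Dnmt3b* were *Ybx1* (rho 0.85), *Ldha* (0.83) and *Ranbp1* (0.83), and the 3 most opposite were *Ifitm3* (-0.81), *Sft2d1* (-0.77) and *Cic* (-0.77). *Ybx1* codes for an RNA-binding protein, *Ldha* for a lactate dehydrogenase subunit and *Ranbp1* for a partner of the RAN GTPase. *Ifitm3*, an interferon-induced membrane protein used as an early PGC marker, had a mean of 13.30 in cells labelled *Prdm14* KO and 12.54 in cells labelled WT. It is also on the germ cell list. The 3 most like *Uhrf1* were *Hspd1* (0.79), a mitochondrial chaperone, *Pold2* (0.76), a subunit of DNA polymerase delta, and *Ybx3* (0.74). The 3 most opposite were *Trmt1* (-0.72), *Oxct1* (-0.72) and *Fbrs* (-0.70). The highest rho was 0.62 for *Dnmt3a* (*Map2k3*) and 0.57 for *Dnmt3l* (*Ppp2r5e*).

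The partners of maintenance methylation had no common direction between cells labelled *Prdm14* KO and WT. Of 15 genes of this kind, 1 was higher and 2 were lower by at least 1 in *Prdm14* KO minus WT, with a median difference of -0.05. *Hells*, a chromatin remodeller that methylation needs, averaged 10.43 ± 0.90 in cells labelled *Prdm14* KO and 9.79 ± 1.61 in cells labelled WT (SD, n = 4 and 13). *Pcna*, the replication clamp that DNMT1 binds, averaged 12.89 ± 0.12 and 13.11 ± 0.27 in the same groups. Neither differed by 1. *Cdca7l*, related to a partner of HELLS, was on in 1 of 4 cells labelled *Prdm14* KO, against 10 of 13 labelled WT, with a difference of -2.14. *Rb1*, which restrains E2F factors, was on in all 4 cells labelled *Prdm14* KO, against 1 of 13 labelled WT, with a difference of 3.15. The acetyltransferase gene *Kat5* differed by -1.34. In this comparison label and run cannot be told apart.

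In the comparison within run 3, 1 of the 15 was higher and 3 were lower by at least 1. *Rb1* differed there by 2.59, *Cdca7l* by -2.40, *Cdca7* by -1.18 and the histone deacetylase gene *Hdac2* by -1.13. In run 2, 0 were higher and 4 lower by at least 1 in cells labelled *Prdm14*+/-, compared with WT. Of all genes, 6.17% were higher and 8.51% lower there. In run 2 the mean over the 15 genes was 10.22 in cells labelled *Prdm14*+/- (range 9.66 to 10.46). It was 10.73 in cells labelled WT (range 10.55 to 10.84), with a pooled SD of 0.26.

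Those genes of cytosine oxidation and repair that differed by at least 1 were higher in cells labelled *Prdm14* KO. In *Prdm14* KO minus WT, 3 of 10 were higher and 0 lower by at least 1, against 8.14% and 4.41% of all genes. The same counts held within run 3, against 8.76% and 5.88%. *Tet1*, which oxidises 5-methylcytosine, averaged 10.64 ± 0.27 in cells labelled *Prdm14* KO (on in 4 of 4) and 8.31 ± 1.73 in cells labelled WT (on in 9 of 13). *Gadd45a*, a stress-induced gene linked to DNA repair, averaged 10.65 and 7.56 in these groups, and *Smug1*, a uracil glycosylase gene, 8.23 and 6.43. *Tet3* was on in 0 of the 30 cells. The median difference of the 10 genes was 0.32, against 0 over all genes and 0.13 over the 5290 genes with a mean of at least 8.

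Of 7 readers of methylated CG, 3 were higher in *Prdm14* KO minus WT (*Mbd2* by 2.15, *Zbtb33* by 1.92 and *Zbtb38* by 1.24) and 0 lower, with a median of -0.22, but within run 3 only 1 was higher and 0 lower. Of 14 heterochromatin genes linked to de novo methylation, *Suv39h2* was higher by 1.80 and *Ehmt1*, like it an H3K9 methyltransferase gene, differed by -1.80, with a median of 0. Of 10 genes of methyl donor supply, 2 were higher, among them *Shmt1* (1.01), and 2 lower, among them *Shmt2* (-1.37), with a median of -0.31. Of the 8 listed regulators, 5 were higher and 1 was lower, led by *Sox2* (4.90), a pluripotency gene, *Prdm14* and *Dppa3* (3.51). Of the 5, 4 are also on the germ cell list. The lower one was *Ehmt1*.

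Cell cycle genes were examined because *Dnmt1* and *Uhrf1* are transcribed most around S phase. Of 17 S phase genes, 0 were higher and 2 lower by at least 1 in *Prdm14* KO minus WT (*Gins2*, -1.86, and *Cdc6*, -1.35), with a median of -0.0049. Within run 3, 0 were higher and 3 lower. In run 2, 0 were higher and 5 lower in *Prdm14*+/- minus WT, against 6.17% and 8.51% of all genes. The S phase score there was 9.88 in cells labelled *Prdm14*+/- and 10.59 in cells labelled WT (pooled SD 0.64). Of 13 genes of G2 and M phase, 3 were higher and 0 lower in *Prdm14* KO minus WT (*Aurkb* by 1.53, *Cenpf* by 1.30 and *Plk1* by 1.0045). Within run 3 there were 5 higher and 0 lower, and the counts were the same in *Prdm14*+/- minus WT in run 2. The S phase score had a rho of 0.36 with *Uhrf1*, 0.47 with *Dnmt3b* and 0.31 with *Dnmt1* over 30 cells. The score of the G2 and M phase genes had a rho of -0.43 with *Dnmt1*, -0.28 with *Dnmt3b* and -0.07 with *Uhrf1*. The range of the S phase score was 9.97 to 10.75 in cells labelled *Prdm14* KO, 9.05 to 11.27 in cells labelled *Prdm14*+/- and 9.25 to 11.17 in cells labelled WT, and the part of either score in the levels was not tested.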

How the data were processed

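Gene expression was measured in 30 single cells, kept as PGCs, on Affymetrix mouse expression arrays. Per the labels and methods, single-cell cDNA was amplified before hybridisation, and the authors deposited log2 MBEI values from dChip 1.3 (PM/MM difference model). How arrays were scaled to each other, and why values are listed at 0, was not given in the sources used. Of 45101 probe sets, 34958 had 1 gene symbol, 932 several and 9211 were unnamed. The probe set with the highest mean stood for each of 18194 genes. A floor of 6 (64 MBEI) was set under all log2 values, and cells at the floor have no order.

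Differences between labels are those of mean log2 values, beside the pooled SD between cells. Genes were counted as different at 1 on the log2 scale or more, and no p-value was computed. Array runs were read from the array codes. The genes and lists were chosen with earlier results of these data known. Listed genes were named when a mean was at least 8 in the higher group and the difference was among the 3 largest in either direction between cells labelled *Prdm14* KO and WT, with *Dppa3*, *Prdm14*, *Tet1*, *Hells* and *Pcna* always named. For each of the 4 genes on in 5 to 25 cells, the 3 genes highest and lowest in Spearman's rho were named among those with a mean of at least 8. *Cdca7*, *Hdac2*, *Tet3*, *Prdm1*, *Kdr*, *Etv2*, *Cdh2*, *Utf1*, the correlations within runs and the 9 cells lowest in *Dnmt3b* were singled out after their values were seen. Of the listed genes, 12 were not found under a symbol.

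As alternatives, a floor of 16 MBEI and one 4 times the main floor were tried, as were quantile normalization, a shift of each array to the same median over the 3239 probe sets above 0 on every array, medians over cells, the mean over all probe sets, the array run as a block, single runs and leaving out cells. No 2 arrays were identical (0 pairs). The functions were checked on simulated data. Promoter windows came from RefSeq (GRCm38.p6). Computation was in Python 3.11.15 with pandas 2.3.3 and NumPy 2.4.6, and plots in matplotlib 3.10.9.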

Additional observations from a re-analysis of the deposited data

Results flagged for a closer look

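Among the 4 cells labelled *Prdm14* KO, 2 levels stood apart. For *Uhrf1*, cell 8 was at the floor while cells 18, 21 and 81 had 8.56, 8.17 and 8.31, so that the gap to the nearest cell made up a share of 0.848 of the range. For *Dnmt3a*, cell 21 had 7.60 while the other 3 were at the floor, a share of 1. With 3 cells tied at the floor, the share of 1 for *Dnmt3a* follows whatever the level of cell 21. Levels of 4 genes varied among these cells and were examined. A chance rate for such gaps cannot be given here, since levels set to the floor are tied or clipped. Because both gaps run to the floor, their size depends on where the floor is set.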

How the results depend on the processing

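The differences of *Dnmt3b* and of *Uhrf1* kept their sign under the alternatives run in the 3 comparisons over all runs. Within runs 2 and 3 only cells were left out, and the signs held there too. *Prdm14* KO minus WT ranged from -5.22 (array run as a block) to -2.48 (mean over all probe sets) for *Dnmt3b* and from -3.52 to -1.21 for *Uhrf1* under the same pair. Leaving out 1 cell labelled *Prdm14* KO gave -4.14 to -2.96 for *Dnmt3b* and -2.28 to -1.43 for *Uhrf1*. In the block fit, only 3 cells labelled WT (run 2) share a run with another label. Under settings other than leaving out a cell, 108 differences moved by less than the SD between cells and 4 moved by more. With the array run as a block, *Dnmt3l* gave 0.57 for *Prdm14* KO minus WT. With a floor of 16 MBEI, it gave -0.997 for *Prdm14* KO minus *Prdm14*+/-. *Dnmt1* gave 1.08 for *Prdm14*+/- minus WT both with the block and in run 2 alone, where cell 65 set the value, and 1.16 for *Prdm14* KO minus WT with the block. The cause was not tested.

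Some differences crossed 1 with the setting. *Uhrf1* in *Prdm14* KO minus *Prdm14*+/- was -1.29, but -0.69 with the mean over all probe sets and -0.70 without cell 8. *Uhrf1* in *Prdm14*+/- minus WT was -0.73, but -1.02 with a floor of 16 MBEI. *Dnmt3b* in *Prdm14*+/- minus WT was -1.30, but -0.996 with a floor 4 times higher and -0.90 with the mean over all probe sets. Both this value and that of *Uhrf1* were larger within run 2. *Dnmt3a* in *Prdm14* KO minus *Prdm14*+/- was -1.10, but -0.07 with the mean over all probe sets, -0.97 without any 1 of cells 8, 18 and 81 (-0.91 within run 3) and -0.91 without cell 66. Its *Prdm14*+/- minus WT difference in run 2 was 0.72, but 1.32 without cell 61, 0.31 without cell 65 and 0.35 without cell 66. It was -0.79 in *Prdm14* KO minus WT, but -1.37 with a floor of 16 MBEI and -1.19 without cell 21. Cells with both *Dnmt3b* and *Uhrf1* at the floor numbered 4, or 3 with a floor of 16 MBEI, without cell 8 or without cell 66. Quantile normalization cannot change this count. Leaving out cell 66 and cells of runs 2 and 3 was chosen after seeing the data.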

Other observations

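Some markers of other lineages were on in part of the cells. Of 9 endoderm genes, 7 were on in at least 1 cell. *Sox17*, which early PGCs also transcribe, was on in 21 cells with a *Prdm14* KO minus WT difference of 1.73, and *Afp* and *Ttr* were on in 0. Endoderm genes on per cell numbered 1 to 2 in cells labelled *Prdm14* KO, 0 to 3 in those labelled *Prdm14*+/- and 0 to 2 in those labelled WT. Of 9 epiblast and ectoderm genes, 5 were on in at least 1 cell. *Sox3* was on in 24 cells with a difference of -1.02, *Cdh2* was on in 17 and *Utf1* in 13, and *Otx2*, *Zic2*, *Sox1* and *Pax6* were on in 0. Of 3 extraembryonic ectoderm genes, 2 were on in at least 1 cell and 0 differed by 1.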
